A study of Homo sapiens with 6 samples.

Results

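Ribosome biogenesis and nucleolar genes were followed by RNA sequencing in 2 enzalutamide-resistant prostate cancer cell lines treated with inhibitors of the chaperone HSP70. The set held 45 genes of 60658 listed, listed by their function and matched by Ensembl identifier, and all 45 were found. They were grouped by role into 6 genes of RNA polymerase I, 8 of the small nucleolar ribonucleoproteins (snoRNPs), 13 of small subunit assembly, 13 of large subunit assembly and 5 general nucleolar proteins. C4-2B MDVR is a derivative of the C4-2B line selected for resistance to enzalutamide, a drug used against prostate cancer, and CWR22Rv1 is a prostate cancer line that is also resistant to it. Each line received apoptozole (APO) or VER155008 (VER), both at 10 µM, or vehicle (DMSO) for 48 h, and 1 library was made for each of the 6 conditions. The study maintained C4-2B MDVR cells, the source of the DMSO control too, in 20 µM enzalutamide and states none for the medium of CWR22Rv1 cells, so the line and the drug in the medium cannot be told apart. The sample descriptions name LNCaP-C4-2B as the source of the first line and call its cell type parental, while the titles and the study name C4-2B MDVR, which was followed here. Library preparation is given as a TruSeq kit by the study and as a stranded kit with poly-A selection by the labels.

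A ribosome is built in the nucleolus, where RNA polymerase I transcribes a long precursor of the ribosomal RNAs. Box C/D snoRNPs methylate that precursor and box H/ACA snoRNPs convert selected uridines to pseudouridine, while separate sets of assembly factors cut, fold and export the small and the large subunit. Many of these genes are known targets of MYC, and their output rises in growing tumour cells, prostate cancer cells included.

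Levels are deposited FPKM values, that is fragments scaled for transcript length and sequencing depth. Changes are given as the treated minus the control library in log2(FPKM + 0.1), and a gene was called lower or higher when the difference passed 1.2-fold, the threshold of the study. No condition had a replicate, so no change has an error or a p-value, and a call says only that the 2 libraries differed by that much. Values follow the order DMSO, APO and VER in each line. In these bulk libraries, fewer cells of a type and less RNA per cell cannot be told apart, and a change shared by all transcripts is not visible in FPKM.

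With the DMSO library of C4-2B MDVR cells set to 1, relative depth was estimated from the commonest ratio of low FPKM values between libraries. The estimate was 1.64 with APO in that line and between 1.14 and 1.27 in the other libraries. It is rough, since that ratio was shared by only 13 to 33 of the 167 to 347 genes with low values. Mitochondrial genes held 10.4% of FPKM in the CWR22Rv1 APO library, 25.7% in each of the other CWR22Rv1 libraries and 14.8% to 16.4% in C4-2B MDVR cells. The luminal prostate genes HOXB13 (24.4 to 98.2 FPKM), EPCAM (87.7 to 177 FPKM), KRT8 (147 to 335 FPKM) and KRT18 (163 to 333 FPKM) were present in every library. So was KLK2, but its level was not stable. KLK2 was at 229, 15.9 and 46.5 FPKM in C4-2B MDVR cells and 83.4, 7.91 and 52.0 FPKM in CWR22Rv1 cells. Of the 6 markers of other cells, PECAM1, KRT5 and TP63 were listed at 0 in all 6 libraries, PTPRC reached at most 0.0323 FPKM and COL1A2 0.204 FPKM, and COL1A1 lay between 3.32 and 10.8 FPKM.

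All 45 members were above 1 FPKM in every library and above the floor of 0.1 FPKM used for comparison, so none was lost to a filter. In C4-2B MDVR cells their median level was 40.1 FPKM with DMSO, 25.4 FPKM with APO and 32.1 FPKM with VER. In CWR22Rv1 cells the median was 30.6 FPKM with DMSO, 25.2 FPKM with APO and 21.6 FPKM with VER. Both inhibitor libraries of each line thus had a lower median than the DMSO library. As a share of all non-mitochondrial FPKM, the members held 0.617%, 0.414% and 0.424% in C4-2B MDVR cells and 0.528%, 0.437% and 0.378% in CWR22Rv1 cells.

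With APO in C4-2B MDVR cells 35 of the 45 members (77.8%) were lower and 2 higher, where 35.4% of all 20122 genes compared were lower and 37.7% higher. VER in the same line gave 36 lower (80.0%) and 0 higher, against 34.9% and 35.6% of all genes. In CWR22Rv1 cells APO gave 22 lower (48.9%) and 7 higher, against 39.2% and 35.6% of 21608 genes, so that this share stood nearest to that of all genes. With VER 32 members (71.1%) were lower in CWR22Rv1 cells and 0 higher, against 32.3% and 32.1%. The median log2 change of the members in C4-2B MDVR cells was -0.67 with APO and -0.68 with VER, and in CWR22Rv1 cells it was -0.26 and -0.51. Over all genes compared the median lay between -0.01 and 0 in each of these comparisons. Among the genes that averaged 10 FPKM or more, which is closer to the level of the members, 31.5%, 32.3%, 33.6% and 28.3% were lower in the same order. The 2 inhibitors of a line were set against the same DMSO library, so their values are not independent of each other.

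Stricter margins of 1.5-fold and 2-fold were also applied. By more than 1.5-fold, 25 members were lower and 1 higher with APO in C4-2B MDVR cells (23.1% and 25.2% of all genes), and 24 lower and 0 higher with VER (22.4% and 23.7%). In CWR22Rv1 cells APO put 11 lower and 0 higher (27.5% and 23.8%), so that the share of members lower by this margin did not exceed that of all genes. VER put 18 lower and 0 higher there (17.5% and 19.1%). By more than 2-fold, 15 members were lower with APO in C4-2B MDVR cells and 6 with VER, against 13.3% of all genes for each. The VER share of the members was thus near that of all genes. In CWR22Rv1 cells 2 were lower with each inhibitor, against 16.8% for APO and 8.92% for VER, so both shares were below those of all genes. No member was more than 2-fold higher in any of the 4, where 15.4%, 14.4%, 13.8% and 10.8% of all genes were.

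The counts for APO in CWR22Rv1 cells depended on scaling. When the libraries were brought to the same FPKM sum its count was 18 lower and 9 higher, and when mitochondrial genes were left out of that sum it was 29 lower and 1 higher. The median of genes above 1 FPKM moved to 0.12 and to -0.15 under these scalings, from 0.01. The shares of all genes called lower or higher were not recomputed under them, so these counts cannot be set against such a share.

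**Figure D1:**
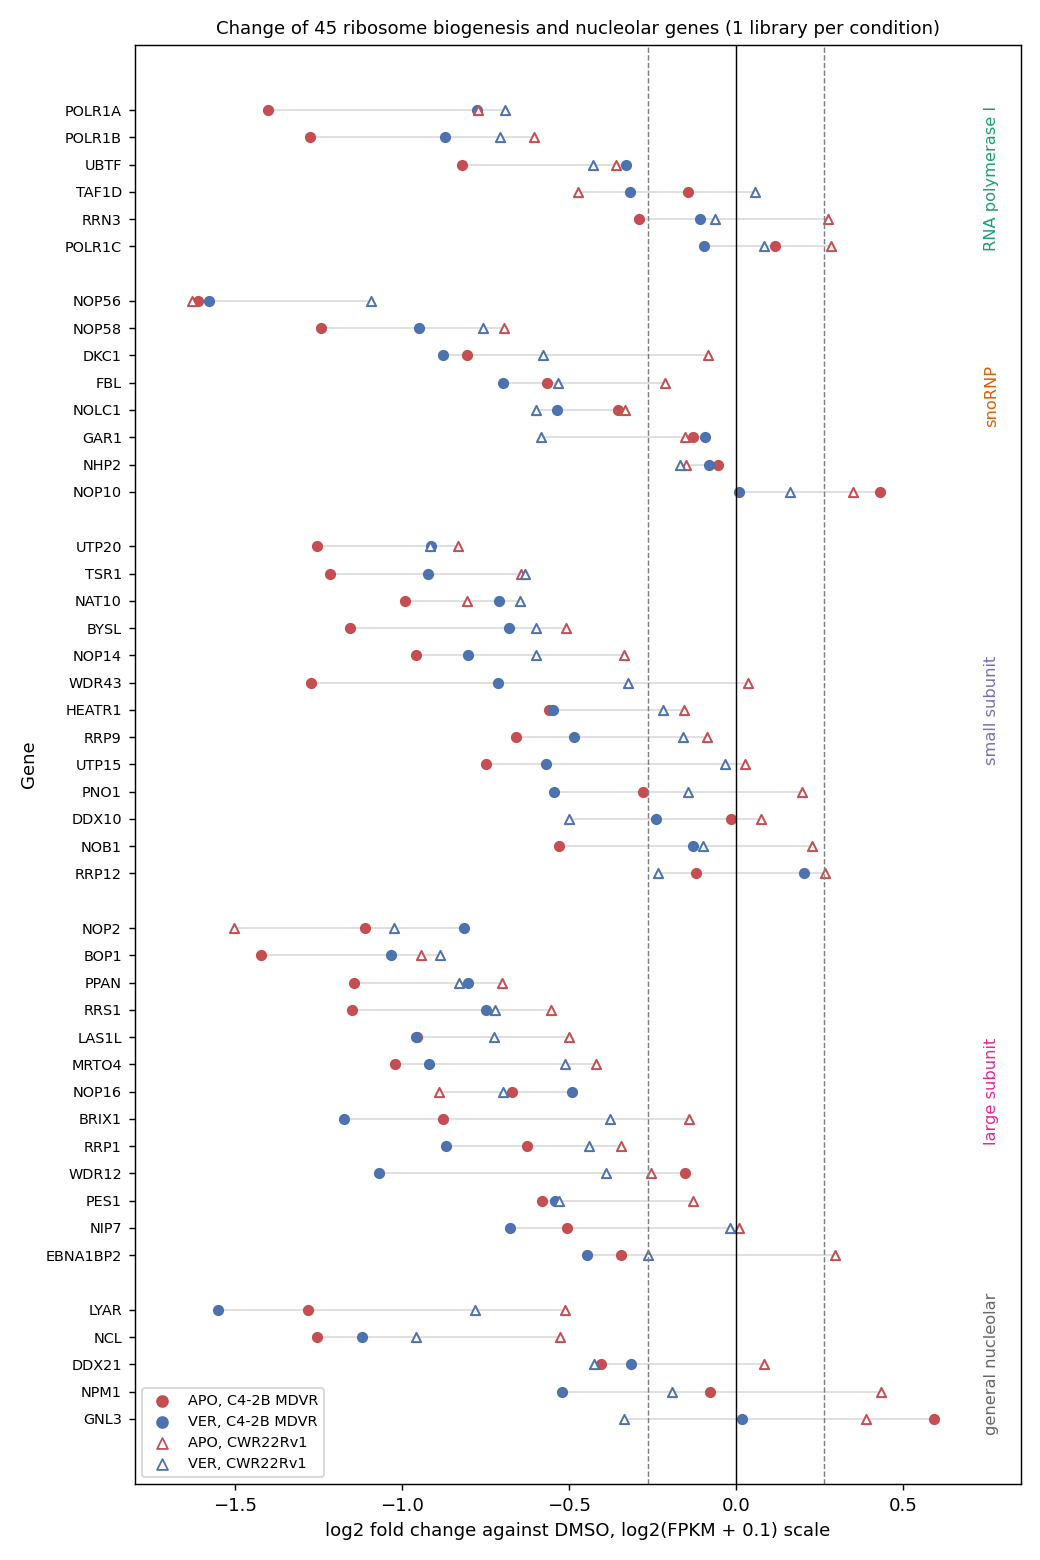
Log2 fold change of each of the 45 members against DMSO of the same line, for each inhibitor in both lines, grouped by role. Each point stands for 1 pair of libraries on the log2(FPKM + 0.1) scale, with filled circles for C4-2B MDVR, open triangles for CWR22Rv1, red for APO, blue for VER and dashed lines at 1.2-fold. NOP56 (-1.63 to -1.09) lies left of the dashed line throughout, and NOP10 (0.01 to 0.43) at or right of 0.

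Of the members, 21 were lower in all 4 inhibitor comparisons, against 11.3% of the 18059 genes compared in both lines. They were POLR1A, POLR1B and UBTF of RNA polymerase I, NOP56, NOP58 and NOLC1 of the snoRNPs, NOP14, UTP20, BYSL, NAT10 and TSR1 of the small subunit, NOP2, NOP16, BOP1, RRP1, RRS1, LAS1L, MRTO4 and PPAN of the large subunit, and the nucleolar proteins NCL and LYAR. A further 7 were lower in 3 comparisons, 7 in 2 and 6 in 1. POLR1C, NHP2, NOP10 and RRP12 were lower in none of the 4. No member was higher in all 4 comparisons, where 9.59% of all genes were. Counting each line by itself, 33 members were lower with both inhibitors in C4-2B MDVR cells and 21 in CWR22Rv1 cells, against 25.9% and 21.9% of all genes. In neither line was a member higher with both, where 24.8% and 17.3% of all genes were.

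By role, large subunit factors had the lowest median in both C4-2B MDVR comparisons, -0.88 with APO and -0.81 with VER. The small subunit medians in this line were -0.75 and -0.57, those of the snoRNP members -0.46 and -0.62, those of RNA polymerase I -0.56 and -0.32, and those of the general nucleolar proteins -0.41 and -0.52. In CWR22Rv1 cells the large subunit and RNA polymerase I medians with APO were both -0.42, ahead of -0.18 for snoRNP, -0.09 for small subunit and 0.08 for general nucleolar members. With VER in that line the snoRNP median was -0.58, the large subunit -0.53, the general nucleolar -0.43, the small subunit -0.32 and RNA polymerase I -0.25. The order of the roles therefore differed between the lines and inhibitors, and within each role the members spread by more than the medians of the roles did. Large subunit factors were lower in 12, 13, 8 and 12 of 13 genes over the 4 comparisons (the C4-2B MDVR comparisons first, APO before VER). The corresponding small subunit counts were 11, 10, 5 and 7 of 13. Of all genes, 35.4%, 34.9%, 39.2% and 32.3% were lower in the same order. The small subunit share with APO in CWR22Rv1 cells (38.5%) was thus near that of all genes.

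**Figure D2:**
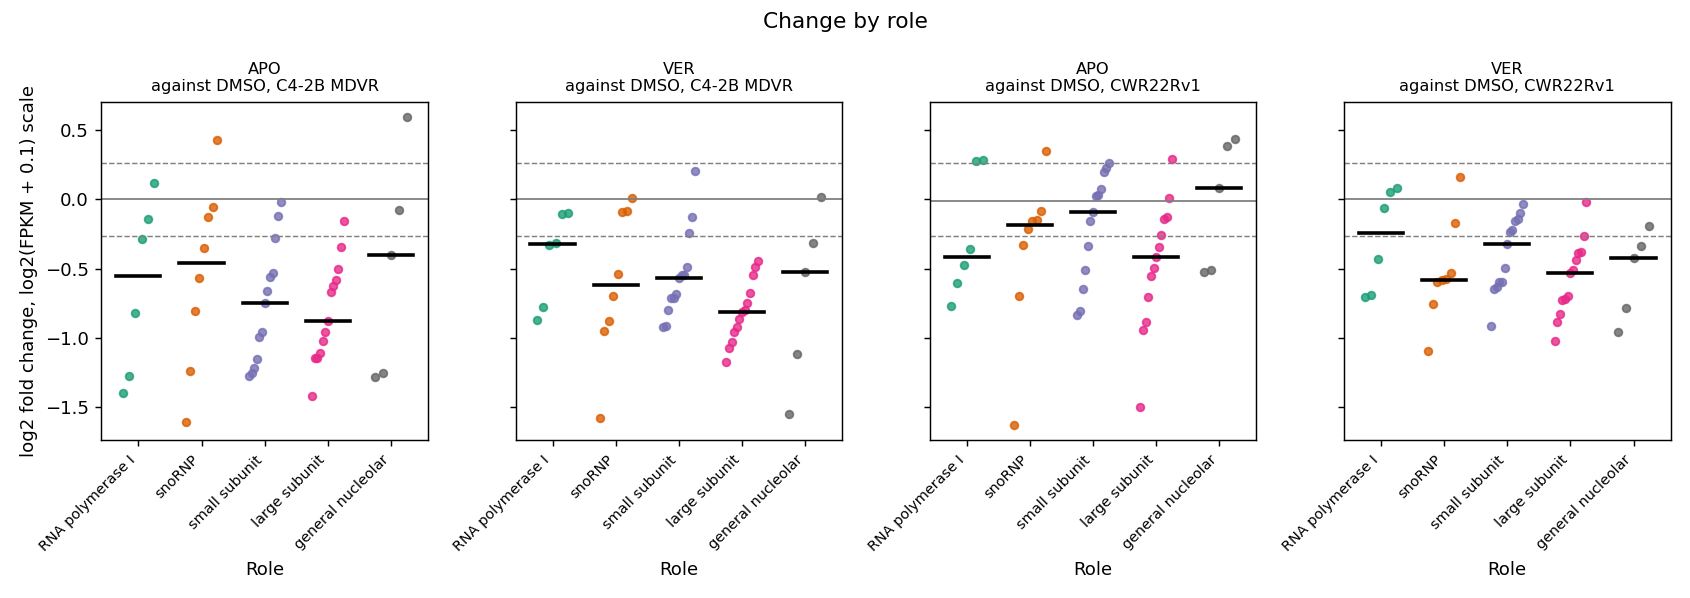
Log2 fold change against DMSO by role in the 4 inhibitor comparisons, with 1 point per member a black bar at the median of the role, a grey line at the median of all genes and dashed lines at 1.2-fold. The large subunit medians lie at -0.88, -0.81, -0.42 and -0.53, and the points of every role span more than 1 log2 unit in the C4-2B MDVR APO panel.

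RNA polymerase I divided by component. POLR1A (ENSG00000068654, chr2:86020216-86106155 on GRCh38 by GENCODE 29), the largest subunit of the enzyme, was at 13.9, 5.20 and 8.07 FPKM in C4-2B MDVR cells and 7.51, 4.35 and 4.61 FPKM in CWR22Rv1 cells. POLR1B (ENSG00000125630, chr2:112541915-112577150), which forms the active centre with POLR1A, was at 22.3, 9.16 and 12.2 FPKM in C4-2B MDVR cells and 15.6, 10.3 and 9.55 FPKM in CWR22Rv1 cells. Both genes were below DMSO in all 4 inhibitor libraries, with POLR1A 2.64-fold lower in the C4-2B MDVR APO library. Their log2 changes were -1.40 (APO) and -0.77 (VER) in the C4-2B MDVR line and -0.77 and -0.69 in CWR22Rv1 cells for POLR1A. For POLR1B they were -1.28 (APO) and -0.87 (VER) in the C4-2B MDVR line and -0.60 and -0.71 in CWR22Rv1 cells. POLR1C (ENSG00000171453, chr6:43509702-43562419), a subunit shared with RNA polymerase III, was at 56.8, 61.6 and 53.1 FPKM in C4-2B MDVR cells and 38.1, 46.4 and 40.3 FPKM in CWR22Rv1 cells. It did not follow the others: its log2 changes were 0.12 (APO) and -0.10 (VER) in the C4-2B MDVR line and 0.28 and 0.08 in CWR22Rv1 cells, and the APO value in CWR22Rv1 cells was a call in the opposite direction.

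The factors that bring the polymerase to the ribosomal DNA were less uniform. UBTF (ENSG00000108312, chr17:44205033-44221626), which binds along ribosomal DNA and keeps it open, was at 38.2, 21.6 and 30.4 FPKM in C4-2B MDVR cells and 37.5, 29.2 and 27.8 FPKM in CWR22Rv1 cells, lower in every inhibitor library with log2 changes of -0.82 (APO) and -0.33 (VER) in the C4-2B MDVR line and -0.36 and -0.43 in CWR22Rv1 cells. TAF1D (ENSG00000166012, chr11:93729948-93784391), a subunit of the promoter factor SL1, was at 47.9, 43.3 and 38.4 FPKM in C4-2B MDVR cells and 58.0, 41.7 and 60.2 FPKM in CWR22Rv1 cells. It was lower with VER in the C4-2B MDVR line (-0.32) and with APO in CWR22Rv1 cells (-0.47), and within 1.2-fold of DMSO in the other comparisons. RRN3 (ENSG00000085721, chr16:15060022-15094317), the factor that makes the polymerase competent to initiate, was at 34.9, 28.5 and 32.4 FPKM in C4-2B MDVR cells and 21.0, 25.4 and 20.1 FPKM in CWR22Rv1 cells. With APO it was lower in C4-2B MDVR cells (-0.29) and higher in CWR22Rv1 cells (0.27), and with VER it passed the threshold in neither.

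**Figure D3:**
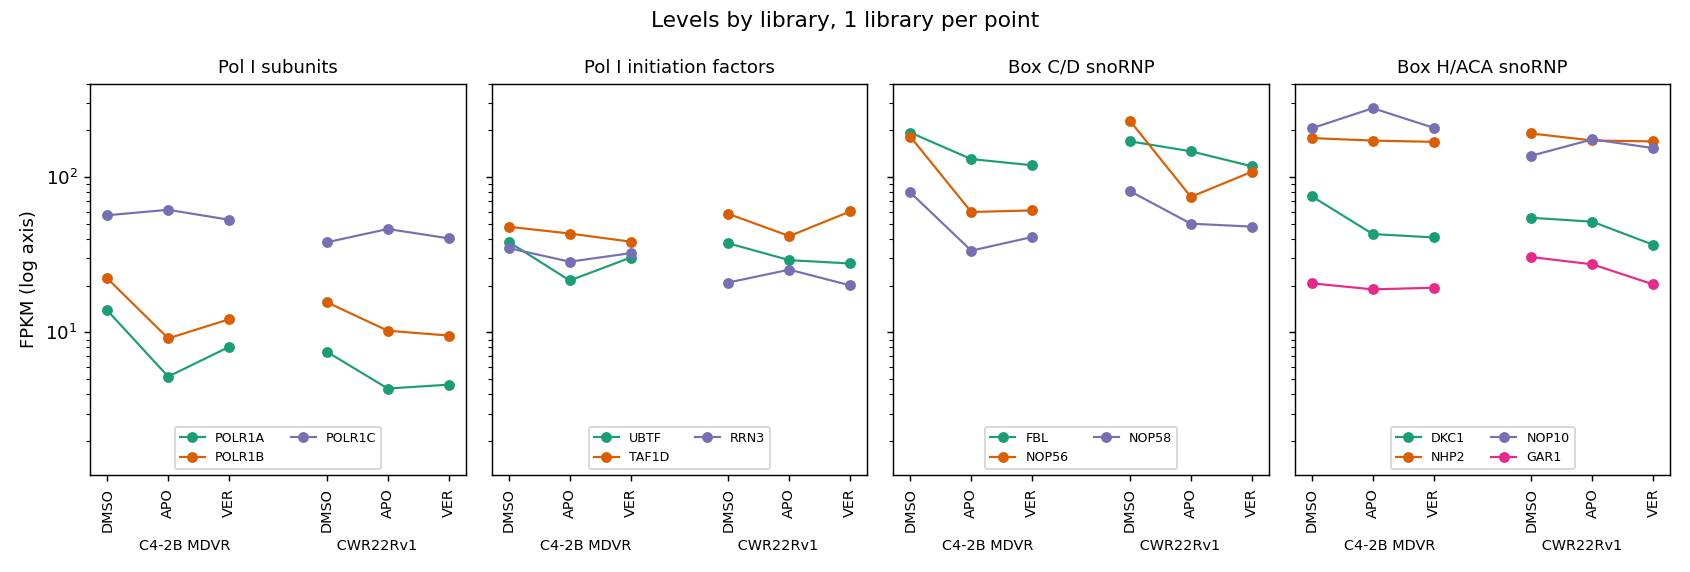
FPKM on a log axis in the 6 libraries for RNA polymerase I subunits, its initiation factors, and the core proteins of box C/D and box H/ACA snoRNPs, with 1 library per point and lines joining the libraries of a cell line. NOP56 is at 182 FPKM with DMSO and 59.6 FPKM with APO in C4-2B MDVR cells, while NHP2 is between 169 and 191 FPKM in all 6 libraries.

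The core proteins of the 2 kinds of snoRNP had different values. In box C/D particles NOP56 (ENSG00000101361, chr20:2652145-2658393) and NOP58 form the scaffold on the RNA, and fibrillarin (FBL) carries the methyltransferase activity. NOP56 was at 182, 59.6 and 61.1 FPKM in C4-2B MDVR cells and 231, 74.6 and 108 FPKM in CWR22Rv1 cells, and NOP58 (ENSG00000055044, chr2:202265716-202303666) at 79.7, 33.6 and 41.2 FPKM in C4-2B MDVR cells and 81.3, 50.2 and 48.0 FPKM in CWR22Rv1 cells. Both genes were lower in all 4 comparisons, where 11.3% of the 18059 genes compared in both lines were. NOP56 had the lowest mean change of all 45 members (-1.48). Its log2 changes were -1.61 (APO) and -1.58 (VER) in the C4-2B MDVR line and -1.63 and -1.09 in CWR22Rv1 cells, and those of NOP58 were -1.24 (APO) and -0.95 (VER) in the C4-2B MDVR line and -0.70 and -0.76 in CWR22Rv1 cells. FBL (ENSG00000105202, chr19:39834458-39846414) was at 194, 131 and 119 FPKM in C4-2B MDVR cells and 170.1, 147 and 117 FPKM in CWR22Rv1 cells, with smaller changes of -0.57 (APO) and -0.70 (VER) in the C4-2B MDVR line and -0.21 and -0.53 in CWR22Rv1 cells.

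In box H/ACA particles dyskerin (DKC1) is the pseudouridine synthase and NHP2, NOP10 and GAR1 complete the core, which is shared with telomerase. DKC1 (ENSG00000130826, chrX:154762742-154777689) was at 75.2, 43.0 and 40.9 FPKM in C4-2B MDVR cells and 54.7, 51.6 and 36.6 FPKM in CWR22Rv1 cells, lower in all comparisons except APO in CWR22Rv1 cells (-0.08). NHP2 (ENSG00000145912) was at 178, 172 and 169 FPKM in C4-2B MDVR cells and 191, 172 and 169.8 FPKM in CWR22Rv1 cells, and its changes lay between -0.17 and -0.05. GAR1 (ENSG00000109534) was at 20.7, 18.9 and 19.4 FPKM in C4-2B MDVR cells and 30.6, 27.5 and 20.4 FPKM in CWR22Rv1 cells, past the threshold with VER in CWR22Rv1 cells alone (-0.58). NOP10 (ENSG00000182117, chr15:34341713-34343177) was at 206, 278 and 208 FPKM in C4-2B MDVR cells and 137, 175 and 154 FPKM in CWR22Rv1 cells, with APO values above DMSO in both lines (0.43 and 0.35). Of the box H/ACA core, then, DKC1 accounted for 3 of the 4 lower calls. The median of the 3 box C/D proteins was -1.24, -0.95, -0.70 and -0.76 over the 4 comparisons, and that of the 4 box H/ACA proteins -0.09, -0.09, -0.12 and -0.37. NOLC1, a chaperone of both kinds of particle, was lower in all 4 comparisons, at -0.35, -0.54, -0.33 and -0.60.

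In small subunit assembly UTP20 (ENSG00000120800), a large scaffold of the early particle, had the lowest mean change (-0.98) and RRP12, an export factor, the highest (0.03). UTP20 was at 11.0, 4.56 and 5.81 FPKM in C4-2B MDVR cells and 7.87, 4.38 and 4.12 FPKM in CWR22Rv1 cells. RRP12 was at 32.3, 29.7 and 37.2 FPKM in C4-2B MDVR cells and 19.3, 23.2 and 16.4 FPKM in CWR22Rv1 cells, and it was higher with APO in CWR22Rv1 cells (0.26) and lower in no comparison. The assembly factors NOP14, BYSL and TSR1, with NAT10, which acetylates the small subunit RNA, joined UTP20 in being lower in all 4 comparisons. With APO in C4-2B MDVR cells their log2 changes were -0.96 for NOP14, -1.16 for BYSL, -0.99 for NAT10 and -1.21 for TSR1. In CWR22Rv1 cells the same comparison gave -0.33, -0.51, -0.81 and -0.64.

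Other small subunit factors were lower in C4-2B MDVR cells and near the DMSO level with APO in CWR22Rv1 cells. WDR43 and UTP15, members of the complex that first binds the nascent precursor, had APO changes of -1.27 and -0.75 in C4-2B MDVR cells, and both stood at 0.03 in CWR22Rv1 cells. WDR43 was at 39.5, 16.3 and 24.0 FPKM in C4-2B MDVR cells and 26.4, 27.0 and 21.1 FPKM in CWR22Rv1 cells. HEATR1, of the same complex, was lower with both inhibitors in C4-2B MDVR cells (-0.56 and -0.55) and at -0.16 and -0.22 in CWR22Rv1 cells. RRP9, a protein of the U3 snoRNP, gave -0.66 (APO) and -0.49 (VER) in the C4-2B MDVR line and -0.09 and -0.16 in CWR22Rv1 cells. For the endonuclease NOB1, which makes the final cut of the small subunit RNA, the values were -0.53 (APO) and -0.13 (VER) in the C4-2B MDVR line and 0.23 and -0.10 in CWR22Rv1 cells. Its partner PNO1 gave -0.28 (APO) and -0.54 (VER) in the C4-2B MDVR line and 0.20 and -0.14 in CWR22Rv1 cells, and the helicase DDX10 -0.02 (APO) and -0.24 (VER) in the C4-2B MDVR line and 0.07 and -0.50 in CWR22Rv1 cells.

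In large subunit assembly NOP2 (ENSG00000111641), a methyltransferase of the large subunit RNA, had the lowest mean change (-1.11) and EBNA1BP2 (ENSG00000117395) the highest (-0.19). NOP2 was at 59.2, 27.3 and 33.6 FPKM in C4-2B MDVR cells and 60.4, 21.3 and 29.7 FPKM in CWR22Rv1 cells. It was lower in all 4 comparisons, as were 11.3% of the 18059 genes compared in both lines. EBNA1BP2 was at 56.7, 44.5 and 41.5 FPKM in C4-2B MDVR cells and 52.3, 64.1 and 43.5 FPKM in CWR22Rv1 cells, lower in C4-2B MDVR cells with both inhibitors and higher with APO in CWR22Rv1 cells (0.29), where its VER value of -0.27 was at the threshold.

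PES1, BOP1 and WDR12 form the PeBoW complex, needed for maturation of the large subunit RNA, and the 3 genes did not move alike. BOP1 (ENSG00000261236) was at 66.6, 24.8 and 32.5 FPKM in C4-2B MDVR cells and 37.9, 19.7 and 20.5 FPKM in CWR22Rv1 cells, with log2 changes of -1.42 (APO) and -1.03 (VER) in the C4-2B MDVR line and -0.94 and -0.89 in CWR22Rv1 cells. PES1 (ENSG00000100029) was at 81.6, 54.5 and 55.9 FPKM in C4-2B MDVR cells and 34.2, 31.2 and 23.6 FPKM in CWR22Rv1 cells. WDR12 (ENSG00000138442) was at 17.9, 16.1 and 8.49 FPKM in C4-2B MDVR cells and 26.1, 21.8 and 19.9 FPKM in CWR22Rv1 cells. In C4-2B MDVR cells WDR12 was close to DMSO with APO (-0.15) and 2.10-fold lower with VER (-1.07), while BOP1 was lower with both. PES1 gave -0.58 (APO) and -0.54 (VER) in the C4-2B MDVR line and -0.13 and -0.53 in CWR22Rv1 cells, so the CWR22Rv1 APO value was within 1.2-fold of DMSO. The PeBoW medians were -0.58, -1.03, -0.26 and -0.53 over the 4 comparisons.

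The remaining large subunit factors were lower with both inhibitors in C4-2B MDVR cells without exception. RRS1, which helps to place the small ribosomal RNA of that subunit, was at 58.8, 26.5 and 34.9 FPKM in C4-2B MDVR cells and 23.8, 16.2 and 14.4 FPKM in CWR22Rv1 cells. Its log2 changes were -1.15 (APO) and -0.75 (VER) in the C4-2B MDVR line and -0.55 and -0.72 in CWR22Rv1 cells. LAS1L, the endonuclease that cuts the spacer beside the large subunit RNA, gave -0.95 (APO) and -0.96 (VER) in the C4-2B MDVR line and -0.50 and -0.72 in CWR22Rv1 cells. The assembly factor PPAN gave -1.14 (APO) and -0.80 (VER) in the C4-2B MDVR line and -0.70 and -0.83 in CWR22Rv1 cells, and MRTO4, a placeholder for a stalk protein, -1.02 (APO) and -0.92 (VER) in the C4-2B MDVR line and -0.42 and -0.51 in CWR22Rv1 cells. BRIX1 (-0.88 and -1.17) and NIP7 (-0.51 and -0.68) were lower with APO and VER in the C4-2B MDVR line. With APO in CWR22Rv1 cells BRIX1 stood at -0.14 and NIP7 at 0.01. NOP16 and RRP1 were lower in all 4 comparisons, NOP16 between -0.89 and -0.49 and RRP1 between -0.87 and -0.34.

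The general nucleolar proteins included NPM1, the member with the highest FPKM, and did not share a direction. Nucleolin (NCL, ENSG00000115053), an RNA-binding protein of the nucleolus, was at 301, 126 and 138 FPKM in C4-2B MDVR cells and 186, 129 and 95.8 FPKM in CWR22Rv1 cells, below DMSO in every inhibitor library. LYAR (ENSG00000145220), a zinc finger protein, was at 24.4, 9.99 and 8.27 FPKM in C4-2B MDVR cells and 20.1, 14.1 and 11.6 FPKM in CWR22Rv1 cells, with a log2 change of -1.55 for VER in C4-2B MDVR cells, after NOP56 the lowest of any member in that comparison. Both genes were lower in all 4 comparisons, and for NCL the log2 changes were -1.26 (APO) and -1.12 (VER) in the C4-2B MDVR line and -0.53 and -0.96 in CWR22Rv1 cells. Nucleophosmin (NPM1, ENSG00000181163), a chaperone of ribosomal particles, was at 748, 708 and 521 FPKM in C4-2B MDVR cells and 552, 745 and 484 FPKM in CWR22Rv1 cells, higher with APO in CWR22Rv1 cells (0.43) and lower with VER in C4-2B MDVR cells (-0.52). Nucleostemin (GNL3, ENSG00000163938), a GTP-binding protein, was at 108, 163 and 109 FPKM in C4-2B MDVR cells and 77.6, 101 and 61.4 FPKM in CWR22Rv1 cells. APO put GNL3 above DMSO in both lines (0.59 and 0.39), the VER library of C4-2B MDVR cells was level with DMSO, and that of CWR22Rv1 cells was lower (-0.34). The helicase DDX21 (ENSG00000165732) was at 136, 103 and 109 FPKM in C4-2B MDVR cells and 69.0, 73.1 and 51.3 FPKM in CWR22Rv1 cells, lower in all but the CWR22Rv1 APO library.

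The inhibitors were also set against each other within a line. In C4-2B MDVR cells 15 members were higher (33.3%) and 7 lower (15.6%) with VER than with APO, against 28.5% and 32.5% of all genes. In CWR22Rv1 cells 3 were higher (6.67%) and 18 lower (40.0%), against 37.3% and 34.5%. The larger count in each line was thus near the share of all genes, and the smaller count was below it. By more than 1.5-fold only 1 member was lower and 1 higher in C4-2B MDVR cells (17.7% and 15.4% of all genes), and 2 were lower and 0 higher in CWR22Rv1 cells (20.6% and 25.6%). None differed by more than 2-fold, where 10.5% of all genes were lower in each line and 8.68% and 15.6% higher. The median difference was 0.09 in the former line and -0.17 in the latter. All 5 general nucleolar members were lower with VER than with APO in CWR22Rv1 cells (median -0.51), and 3 of 5 were in C4-2B MDVR cells. In C4-2B MDVR cells 3 of the 6 RNA polymerase I genes and 7 of the 13 small subunit genes were higher with VER than with APO, POLR1A by 0.63, while WDR12 was lower by a log2 difference of -0.92. When each library was scaled to the same FPKM sum, the CWR22Rv1 count went from 18 to 30 lower with VER, and with mitochondrial genes left out of the sum it was 11. In C4-2B MDVR cells the same scalings gave 4 lower and 21 higher with VER (median 0.24) and 3 lower and 23 higher (median 0.27). These scalings shift all genes of a library alike, and the shares of all genes called were not recomputed under them. The rescaled counts therefore cannot be set against such a share. The median of genes above 1 FPKM moved from -0.03 to 0.12 and 0.15 in C4-2B MDVR cells. In CWR22Rv1 cells it moved from -0.05 to -0.23 and 0.04. The mitochondrial share of the CWR22Rv1 APO library stood apart, and its part in these differences was not tested.

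Comparing the lines, the APO change was lower in C4-2B MDVR than in CWR22Rv1 cells for 36 of 45 members, where 49.8% of all genes compared in both lines were, with a median difference of -0.47. For VER this held for 33 members (49.9% of all genes), with a median difference of -0.16. Under the 3 rescalings the APO count was 36, 43 and 36 and the VER count 35, 29 and 28, and the share of all genes was not recomputed. WDR43 differed most among the members called in C4-2B MDVR cells, at -1.27 against 0.03 with APO. NOP2 was in the minority that were lower in CWR22Rv1 cells (-1.50 against -1.11). Across the 45 genes the changes in the 2 lines had a Spearman correlation of 0.78 for APO and 0.68 for VER, given as a description over genes that are not independent. Each line had its own DMSO library. The DMSO libraries themselves differed, with 29 members higher in C4-2B MDVR cells and 5 lower, where 35.5% of all 23671 genes compared were higher and 39.9% lower. RRS1 (1.30) and PES1 (1.25) were among those higher in C4-2B MDVR cells, and the 5 lower were TAF1D, NOP56, GAR1, WDR12 and MRTO4. With 1 library per condition, the difference in response between the lines was not tested.

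**Figure D4:**
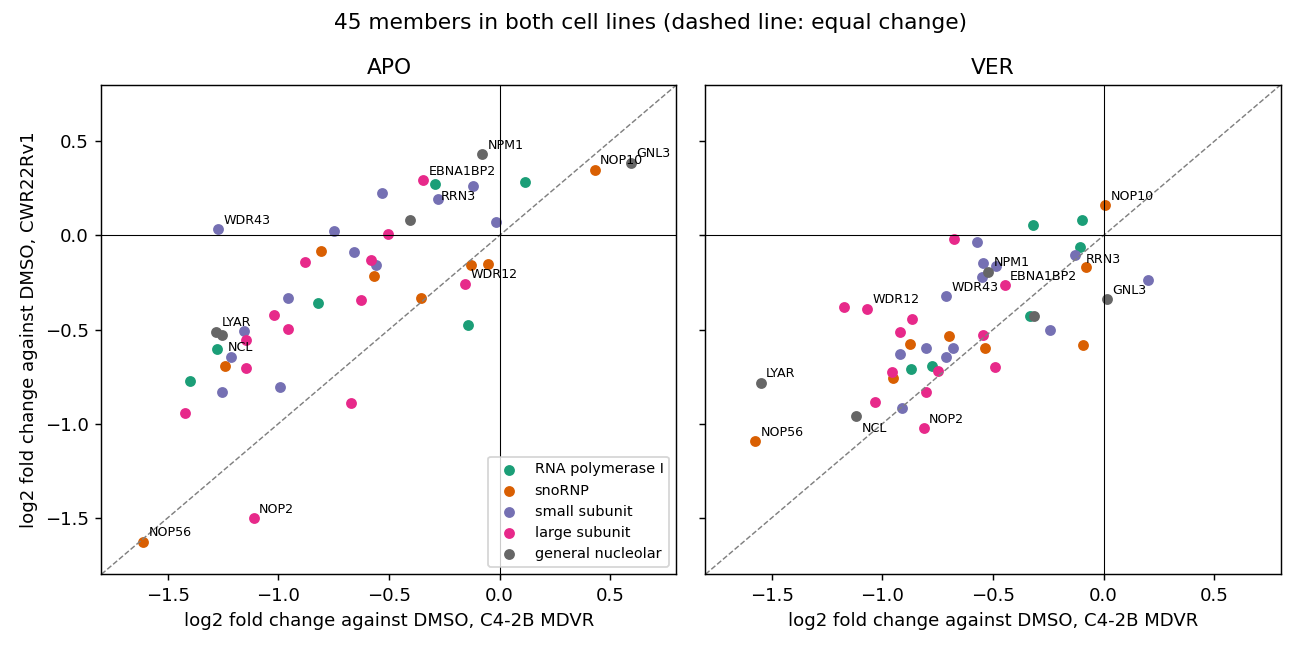
Log2 fold change against DMSO in C4-2B MDVR cells (x axis) and CWR22Rv1 cells (y axis) for the 45 members, with 1 panel per inhibitor, colours for roles and a dashed line of equal change. In the APO panel 36 points lie above the dashed line, that is, lower in C4-2B MDVR cells.

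Promoter windows of RefSeq on GRCh38.p14, from 250 bases before to 50 after each annotated start, were available for 40 of the 45 members. They were searched for CACGTG, the E-box core that MYC with MAX and other basic helix-loop-helix factors bind, which reads the same on both strands. It was found for 17 of the 40 (42.5%), against 8.77% of 27305 genes with a window and 13.3% of the 8822 of these above 1 FPKM in all 6 libraries. Among members with the motif, NOP14 and NOP2 were also lower in all 4 comparisons but are not shown. The 30 bases around the motif are shown, with the motif in capitals, for 5 members that were lower in all 4 comparisons (UTP20, BYSL, NAT10, MRTO4 and LYAR) and for the 2 that were higher with APO in both lines (NOP10, which holds the motif in 2 places, and GNL3).
UTP20 (chr12:101280083-101280112, plus strand): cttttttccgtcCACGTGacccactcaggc
BYSL (chr6:41921515-41921544, plus strand): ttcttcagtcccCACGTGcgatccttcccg
NAT10 (chr11:34105602-34105631, plus strand): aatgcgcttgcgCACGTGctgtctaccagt
MRTO4 (chr1:19251807-19251836, plus strand): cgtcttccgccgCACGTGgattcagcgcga
LYAR (chr4:4290068-4290097, minus strand): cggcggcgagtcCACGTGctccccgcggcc
NOP10 (chr15:34343289-34343318, minus strand): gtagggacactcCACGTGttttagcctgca
NOP10 (chr15:34343130-34343159, minus strand): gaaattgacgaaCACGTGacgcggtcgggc
GNL3 (chr3:52686026-52686055, plus strand): ggcttcagttcaCACGTGgcgccagcggag
Members with and without the motif had close medians in C4-2B MDVR cells. In CWR22Rv1 cells the medians were further apart, in opposite directions with APO and VER. With the motif first, the medians in C4-2B MDVR cells were -0.66 and -0.67 with APO and -0.68 and -0.68 with VER. In CWR22Rv1 cells they were -0.15 and -0.26 with APO and -0.53 and -0.43 with VER. Of the 17 with the motif, 14, 14, 7 and 14 were lower over the 4 comparisons, and of the 23 without it 17, 18, 11 and 14. Of all genes, 35.4%, 34.9%, 39.2% and 32.3% were lower in the same order. With APO in CWR22Rv1 cells the share of members with the motif was thus near that of all genes. A match of letters is a description of the window and not a site of binding.

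Of the members, 9 carry snoRNA genes inside their own gene, 35 in all by GENCODE 29, with 8 in TAF1D, 6 in GNL3, 5 in NOP56, 4 in NOP58 and 3 each in NCL and WDR43. Their median change was -1.21, -0.88, -0.53 and -0.63 over the 4 comparisons, against -0.60, -0.56, -0.19 and -0.47 for the 36 members without one. TAF1D and GNL3, with the most snoRNA genes, had changes between -0.47 and 0.59. The libraries are of poly-A RNA per the labels, and the snoRNAs themselves were not assessed.

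Among 115 other genes of ribosome biogenesis, the same direction prevailed in C4-2B MDVR cells. There 77 were lower and 13 higher with APO (35.4% and 37.7% of all genes), and 81 lower and 7 higher with VER (34.9% and 35.6%), with medians of -0.47 and -0.50. In CWR22Rv1 cells 36 were lower and 33 higher with APO (39.2% and 35.6% of all genes), and 56 lower and 6 higher with VER (32.3% and 32.1%), with medians of -0.04 and -0.24. With APO in CWR22Rv1 cells the lower and higher calls of this wider list were thus nearly equal in number. In all 4 comparisons 27 of the 115 were lower and 4 higher, against 11.3% and 9.59% of all genes. The lowest means were those of TCOF1, the treacle protein that supports transcription of ribosomal DNA, of the polymerase I subunit POLR1G and of the large subunit factor URB2. TCOF1 was at 25.7, 8.89 and 6.03 FPKM in C4-2B MDVR cells and 23.8, 11.2 and 10.2 FPKM in CWR22Rv1 cells, with log2 changes of -1.52 (APO) and -2.07 (VER) in the C4-2B MDVR line and -1.08 and -1.22 in CWR22Rv1 cells. POLR1G gave -2.08 (APO) and -1.24 (VER) in the C4-2B MDVR line and -1.47 and -0.77 in CWR22Rv1 cells, and URB2 gave -1.30 (APO) and -0.97 (VER) in the C4-2B MDVR line and -1.06 and -0.99 in CWR22Rv1 cells. The highest means belonged to the helicase DDX49, the large subunit factor RSL24D1 and the kinase RIOK3, which acts on the small subunit. DDX49 gave 0.56 (APO) and 0.67 (VER) in the C4-2B MDVR line and 1.06 and 0.59 in CWR22Rv1 cells, RSL24D1 gave 0.51 (APO) and 0.27 (VER) in the C4-2B MDVR line and 1.23 and 0.72 in CWR22Rv1 cells, and RIOK3 gave 0.57 (APO) and 0.55 (VER) in the C4-2B MDVR line and 0.64 and 0.65 in CWR22Rv1 cells.

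Some members share sequence with other genes. The exons of 16 overlap those of another gene at 1 FPKM or more, among them HEATR1 (23.2% of its exonic bases, with LGALS8), NHP2 (27.4%, with RMND5B) and TSR1 (20.7%, with SRR) on the opposite strand, and whether counting used strand is not given in the sources used here. PPAN overlaps the read-through gene PPAN-P2RY11 on its own strand. Pseudogenes named after them exist for 10 members, 45 of the 63 for NPM1. Values of these members are therefore less certain. Leaving out the 16 gave 24, 23, 15 and 22 lower of 29 over the 4 comparisons (the C4-2B MDVR comparisons first, APO before VER). The medians were then -0.81, -0.71, -0.33 and -0.58. Of all genes, 35.4%, 34.9%, 39.2% and 32.3% were lower in the same order.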

How the data were processed

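RNA of 6 cell line libraries, 1 per condition, was measured by paired-end sequencing. The authors aligned the reads with HISAT, ran a Cufflinks pipeline and deposited Cuffnorm FPKM for each gene, put on a common scale across libraries; the processing notes of the submitters name GRCh38, and the versions are not given in the sources used here. FPKM are not counts, and read totals are unknown. No test was made, since each condition of a line has 1 library; a fit of treatment over both lines, with the lines as replicates, was not run. The 60658 identifiers were matched to GENCODE 29, and 57047 had a record.

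Changes are differences of log2(FPKM + 0.1), for genes that exceeded 0.1 FPKM in any of the 3 libraries of a line. Calls needed more than 1.2-fold, as in the study. Members and lists were chosen with earlier results of these data known. All 45 members could be named; values in all libraries were given for RNA polymerase I, box C/D, box H/ACA, PeBoW and general nucleolar genes and the lowest and highest mean change of the other roles, with WDR43 and RRS1 added after their values were seen. Members called against the median of their role were named, and of 115 other genes, those with a mean of at least 1 FPKM and the 3 lowest and 3 highest means. Alternatives were thresholds of 1.5-fold and 2-fold, 3 rescalings, pseudocounts of 0.01 and 1, no floor, and a floor of 1 FPKM in all 3 libraries of the line. Functions were tested on simulated data. Of the marker genes, 1 is not reported here. The software was Python 3.11.15 with numpy 2.4.6, pandas 2.3.3, matplotlib 3.10.9 and scipy 1.17.1.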

Additional observations from a re-analysis of the deposited data

Results flagged for a closer look

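With APO, 2 members passed 1.2-fold in opposite directions in the 2 lines. RRN3 had a log2 change of -0.29 in C4-2B MDVR cells and 0.27 in CWR22Rv1 cells. EBNA1BP2 had -0.35 and 0.29. Each value rests on 1 pair of libraries, and the difference between the lines was not tested. All 4 values are close to the threshold, which is 0.26 on the log2 scale.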

How the results depend on the processing

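Of 416 counts and medians recomputed, 39 moved and 0 reversed. A count moved when it changed by more than 1.5 times and a median when it crossed 1.2-fold. Of 2430 values of single members, 89 crossed 1.2-fold, 82 of them under a rescaling, and 0 reversed. Thresholds and floors could not change a log2 value of a single member, since all members were above 1 FPKM in every library. Those settings are part of the 2430, so the share that crossed understates the effect of a rescaling. For the same reason the medians of members were fixed under thresholds and floors, and their counts under floors. Scaling to a median ratio of 1 put the CWR22Rv1 APO median of the members at -0.27. Scaling to the same sum (TPM) put the CWR22Rv1 VER medians of RNA polymerase I and of the other 115 genes at -0.31 each, and gave 4 members lower with VER than with APO in C4-2B MDVR cells and 30 (median -0.35) in CWR22Rv1 cells. Without mitochondrial genes in the sum, CWR22Rv1 APO had 1 member higher, a median of -0.41 and a snoRNP median of -0.34. In the same setting the CWR22Rv1 VER medians of RNA polymerase I and of the other genes were -0.31 each, VER against APO gave 3 lower and 23 higher (median 0.27) in C4-2B MDVR cells, and 11 lower in CWR22Rv1 cells. Shares of all genes called were not recomputed under any rescaling.

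At 1.5-fold, APO gave 1 member higher in C4-2B MDVR cells and 11 lower and 0 higher in CWR22Rv1 cells, VER gave 18 lower in CWR22Rv1 cells, and VER against APO gave 1 lower and 1 higher in the C4-2B MDVR line and 2 lower and 0 higher in the other. Of all genes, 23.1%, 22.4%, 27.5% and 17.5% were lower by that margin (the C4-2B MDVR comparisons first, APO before VER). At 2-fold, 15, 6, 2 and 2 members were lower in the same order, where 13.3%, 13.3%, 16.8% and 8.92% of all genes were, 0 were higher with APO in either line, and VER against APO gave 0 in each direction in both lines. Left with 29 members after dropping those overlapped by another gene, a choice made after seeing the data, APO gave 1 higher and VER 23 lower in C4-2B MDVR cells. Of all genes, 37.7% were higher with APO and 34.9% lower with VER there. The CWR22Rv1 APO median was then -0.33 and the CWR22Rv1 VER median of RNA polymerase I -0.69. VER against APO gave 4 lower in C4-2B MDVR cells (32.5% of all genes) and a median of -0.27 in CWR22Rv1 cells. Thresholds and dropped members lower counts by construction, and a rescaling shifts all genes of a library alike. The cause of the other moves was not tested. Each line had its own DMSO library, but a fit of treatment paired within line was not run. With 1 library per condition no replicate could be left out, and precision is limited by read totals that are unknown.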
